A study of Homo sapiens with 16 samples.

Results

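A set of 8 genes best known from early B-lineage cells was followed in MUTZ-3, a human AML cell line with inv(3), in which the rearrangement places *EVI1* (listed as *MECOM*) under a foreign enhancer. The 8 genes are *IGHM*, *IGLL1*, *VPREB1*, *JCHAIN*, *CD79A*, *CD79B*, *DNTT* and *RAG1*, out of 60623 genes listed in each library. They were picked by name with results of these data in view, namely their levels after PARP inhibition (PARPi) relative to DMSO of the same hour and after *EVI1* knockdown relative to the control of the same day. Those 2 contrasts are therefore described for the 8 genes without p-values, and the genes were tested on other contrasts.

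In the PARPi experiment, cells were kept for 12, 24 or 48 h with olaparib at 10 µM, talazoparib at 1 µM or their vehicle DMSO, and 1 library of untreated cells marks 0 h. In the knockdown experiment, cells were transduced with lentiviral pLKO.1 carrying a non-targeting control (NTC) or 1 of 2 shRNAs against *EVI1*, shEVI1-2531 and shEVI1-2532, were selected with puromycin, and were harvested at day 3 or day 6. All cells were grown with GM-CSF and medium conditioned by 5637 cells, a bladder carcinoma line. Each of the 16 conditions has 1 library. The names of the deposited tables for shEVI1-2531 carry another number, and here its libraries are identified by their sample labels. Library totals were between 55999673 and 72681943 counts for PARPi and between 95523038 and 120716213 for the knockdown. Levels are given as CPM, counts scaled to a common library total, and 3 counts, taken as the smallest level a library can show, correspond to 0.0249 to 0.0536 CPM.

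In a developing B cell, RAG1 and RAG2 cut the immunoglobulin genes and DNTT adds nucleotides at the joints, so that a V, a D and a J segment are joined upstream of *IGHM*, which codes for the constant region of the mu heavy chain. The mu chain then pairs with the surrogate light chain, made of VPREB1 and IGLL1 (lambda 5), and signals through CD79A and CD79B. JCHAIN links IgM and IgA into polymers and is best known from plasma cells. Unrearranged heavy chain loci are also transcribed, from regions near the D and J segments into *IGHM*, without a V segment.

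The libraries held the constant end of the heavy chain locus but hardly any V segment. *IGHM* (ENSG00000211899) lies on the minus strand of chromosome 14, at chr14:105851705-105856218 in GRCh38. Of the 126 *IGHV* genes and pseudogenes listed, none had more than 5 counts in any library, and the highest single counts were 5 among 92 *IGKV* and 6 among 75 *IGLV* entries. In contrast, all 9 *IGHJ* entries had counts in both NTC libraries. The 3 below are shown because they carried many of the J counts (*IGHJ3* and *IGHJ2P*) or few (*IGHJ6*), and because a rearranged transcript would carry a V segment in front of such a sequence. They are read 5′ to 3′ on the minus strand from the GENCODE v29 transcripts, and the capitals mark TGGGG, the first bases of the conserved tryptophan and glycine codons that define a J segment in the coding genes.
IGHJ3, chr14:105864587-105864635: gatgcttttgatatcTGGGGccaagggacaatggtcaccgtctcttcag
IGHJ2P, chr14:105864793-105864852: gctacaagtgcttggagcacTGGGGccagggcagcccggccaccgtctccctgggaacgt
IGHJ6, chr14:105863198-105863258: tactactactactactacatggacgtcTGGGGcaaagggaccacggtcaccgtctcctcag
*IGHJ2P* is annotated as a pseudogene. Per kb of exon, *IGHJ3* reached 12.7 CPM at day 3 and 25.4 CPM at day 6 in the NTC libraries, *IGHJ2P* 9.80 and 21.2 CPM, and *IGHJ6* 0.543 and 3.91 CPM. Levels of segments this short rest on few reads and on how reads that span them were assigned, and whether counting used strand is not given in the sources used here.

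Of the 8 genes, 6 were measurable. *DNTT* (chr10:96304409-96338564, plus strand) had 0 counts in all 16 libraries, which allows at most 0.0249 to 0.0536 CPM. *VPREB1* (chr22:22244780-22245515, plus strand) stayed under 10 counts in every library, with at most 6, in shEVI1-2531 at day 3. Both therefore entered no test. *RAG1* (chr11:36510709-36593156, plus strand) was close to this limit in the PARPi libraries, with 9 to 19 counts. In untreated and NTC cells, the level per kb of exon was highest for *IGHM*, with 13.7 CPM in untreated cells and 13.5 and 32.3 CPM in NTC at day 3 and day 6. It was followed by *CD79A* (10.7, 6.58 and 13.2 CPM per kb), *CD79B* (3.10, 3.07 and 4.13) and *IGLL1* (2.43, 2.34 and 2.73). *JCHAIN* gave 0.0519, 3.40 and 1.19 CPM per kb and *RAG1* at most 0.0233. With DMSO at 12 and 24 h, *CD79A* was above *IGHM* per kb. In these libraries, *IGHM* and *CD79A* were thus the highest of the 8 genes, whereas the enzymes of V(D)J joining that are specific to lymphocytes were at or near 0. *IGLL1* resembles the lambda light chain genes in sequence, so reads that it shares with them could have been lost or split.

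**Figure D1:**
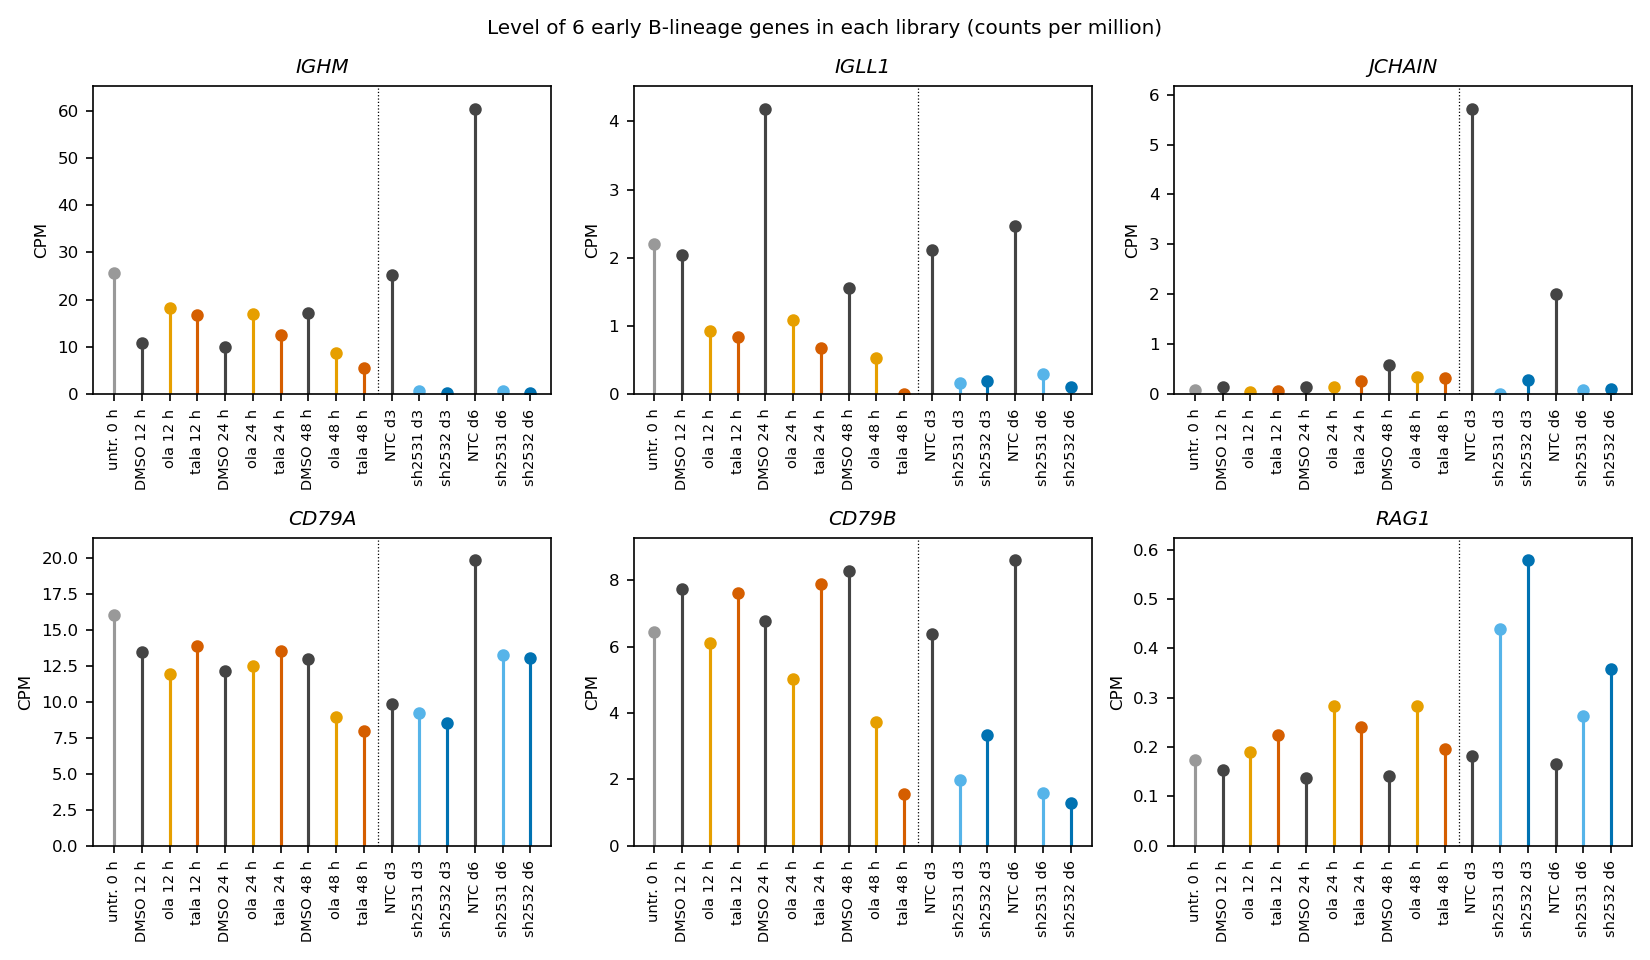
Level of the 6 measurable genes in each of the 16 libraries, in CPM on a linear axis that starts at 0, with 1 point per library and a dotted line between the PARPi libraries (left) and the knockdown libraries (right). *IGHM* was at 25.3 and 60.4 CPM in NTC and at most 0.691 CPM with either shRNA, while *CD79A* stayed between 7.98 and 19.8 CPM in all libraries.

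The targeted gene was lower in every library with an shRNA against it. *MECOM* (chr3:169083499-169663775, minus strand) had 5123 and 4825 counts in NTC at day 3 and day 6, 1171 and 2114 with shEVI1-2531, and 452 and 405 with shEVI1-2532. This left 32.4% and 47.1% of the NTC level with shEVI1-2531 and 12.7% and 11.6% with shEVI1-2532. After PARPi, *MECOM* was at 91.4%, 78.8% and 37.7% of DMSO with olaparib at 12, 24 and 48 h, and at 92.3%, 63.0% and 16.2% with talazoparib. Here and below, a percentage of a control compares 2 libraries after TMM scaling, with a 95% confidence interval that reflects counting error alone.

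*IGHM* was far lower after *EVI1* knockdown. It had 3053 counts in NTC at day 3 against 66 with shEVI1-2531 and 24 with shEVI1-2532, and 6587 counts in NTC at day 6 against 74 and 25. All 4 shEVI1 libraries thus lay far below both NTC libraries. With shEVI1-2531, 3.07% (95% confidence interval 2.37 to 3.92) of the NTC level was left at day 3 and 1.21% (0.946 to 1.52) at day 6. With shEVI1-2532, it was 1.13% (0.722 to 1.68) and 0.524% (0.339 to 0.774). The fitted log2 fold changes against NTC were −5.73 (SE 0.32) and −7.06 (SE 0.35). In these bulk libraries, fewer cells with a transcript and less of it per cell cannot be told apart.

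The surrogate light chain gene *IGLL1* (chr22:23573125-23580302, minus strand) was also lower with both shRNAs. NTC held 255 counts at day 3 and 269 at day 6, shEVI1-2531 held 16 and 34, and shEVI1-2532 held 19 and 10. The groups did not overlap, and the shEVI1 libraries kept between 5.13% and 13.6% of the NTC level. The fitted log2 fold changes were −3.12 (SE 0.38) for shEVI1-2531 and −3.67 (SE 0.40) for shEVI1-2532.

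*JCHAIN* (chr4:70655541-70681817, minus strand) had 690 and 218 counts in NTC at day 3 and day 6, 1 and 10 with shEVI1-2531, and 29 and 11 with shEVI1-2532. Again the groups did not overlap. The single count at day 3 with shEVI1-2531 left 0.206% of the NTC level, with a wide interval of 0.00520 to 1.15%, and the other 3 shEVI1 libraries held 4.93% to 6.97%. *JCHAIN* also differed between the experiments, since the 10 PARPi libraries had only 3 to 37 counts, also without inhibitor. The experiments differ in transduction, selection and sequencing depth, and these cannot be told apart.

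The signalling pair CD79A and CD79B, whose proteins act as a dimer, parted in level. *CD79B* (chr17:63928740-63932354, minus strand) had 771 and 938 counts in NTC, 189 and 180 with shEVI1-2531, and 334 and 128 with shEVI1-2532. It kept 34.8% and 20.6% of the NTC level with shEVI1-2531 and 62.2% and 18.8% with shEVI1-2532, without overlap. *CD79A* (chr19:41877120-41881372, plus strand) had 1193 and 2165 counts in NTC, 881 and 1513 with shEVI1-2531, and 856 and 1310 with shEVI1-2532. It was at 105% and 75.1% of NTC with shEVI1-2531 and at 103% and 83.6% with shEVI1-2532, and the groups overlapped. Scaled by library total only, all 4 of these ratios for *CD79A* were below NTC, with log2 values of −0.61 to −0.10.

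*RAG1* was the only one of the 8 genes that was higher in all shEVI1 libraries, at low counts. NTC held 22 and 18 counts, shEVI1-2531 42 and 30, and shEVI1-2532 58 and 36. The ratio to NTC was 271% and 179% with shEVI1-2531 and 379% and 276% with shEVI1-2532. Its interval included 100% for shEVI1-2531 at day 6 (96.6 to 341%) and lay above it in the other 3 libraries. *RAG2*, which overlaps *RAG1* and is needed for the same cut, had at most 3 counts in any library.

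**Figure D2:**
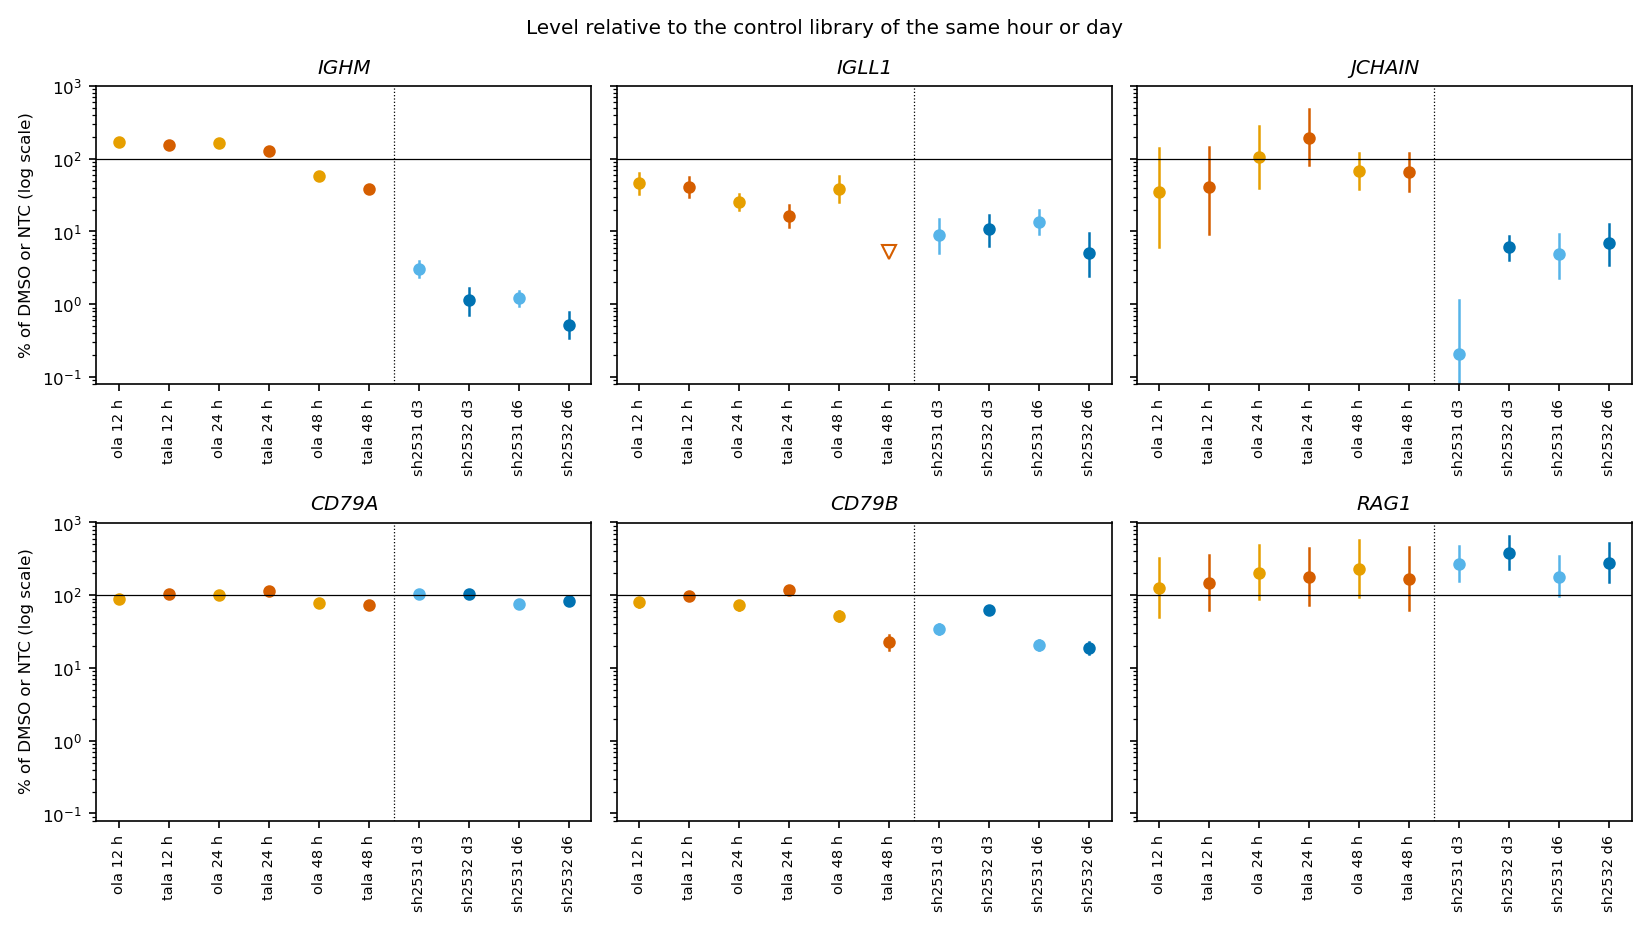
Level of the 6 measurable genes in each treated library as a percentage of the control library of the same hour (DMSO) or day (NTC), on a log axis, with bars for the 95% interval of counting error, orange for inhibitors and blue for shRNAs. The open triangle is the upper limit of *IGLL1* after talazoparib for 48 h (0 counts), and the bar of *JCHAIN* in shEVI1-2531 at day 3 runs below the axis. *IGHM* lay above 100% in the inhibitor libraries at 12 and 24 h and below it at 48 h.

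Counted over the 8 genes, all 4 shEVI1 libraries lay below both NTC libraries for 4 (*IGHM*, *IGLL1*, *JCHAIN* and *CD79B*) and above them for 1 (*RAG1*), where 15.4% of all 18606 genes tested in the knockdown lay below and 14.8% above. At an adjusted p under 0.05 with edgeR (quasi-likelihood), shEVI1-2532 against NTC called the same 4 of 6 measurable genes lower and *RAG1* higher, and called 19.9% of all genes lower and 21.2% higher. shEVI1-2531 against NTC called these 4 lower and none higher, and 7.9% and 9.49% of all genes. The choice of the genes on these contrasts fixed their counts, so nothing is read from them.

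After PARPi, *IGLL1* was the only one of the 8 genes whose level was lower in every inhibitor library than in every library without inhibitor. It had 151 counts in untreated cells and 132, 304 and 99 with DMSO at 12, 24 and 48 h. With olaparib there were 58, 73 and 32 counts, and with talazoparib 60, 39 and 0. The libraries without inhibitor held 1.55 to 4.18 CPM and those with inhibitor 0 to 1.09 CPM. Olaparib left 45.8%, 25.6% and 38.9% of the DMSO level at 12, 24 and 48 h, and talazoparib 41.5% and 16.4% at 12 and 24 h. At 48 h with talazoparib no count was left, and the interval for counting error reached up to 5.20% of DMSO. With 3 counts as the floor of that library, and without counting error, this is at least 24.1-fold lower than DMSO. The DMSO libraries themselves spread widely, as the level at 24 h was 2.07-fold (1.69 to 2.56) that at 12 h.

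*IGHM* moved in both directions over the time course. It had 1768 counts in untreated cells and 700, 730 and 1097 with DMSO at 12, 24 and 48 h, 1151, 1136 and 523 with olaparib, and 1195, 726 and 307 with talazoparib. Relative to DMSO, it was higher at 12 h with olaparib (172%, 95% confidence interval 156 to 189) and talazoparib (156%, 142 to 172) and at 24 h (166%, 151 to 182, and 127%, 115 to 141). At 48 h it was lower, with 57.4% (51.6 to 63.8) after olaparib and 38.3% (33.6 to 43.5) after talazoparib. The libraries without inhibitor spread over 10.0 to 25.7 CPM and overlapped those with inhibitor, at 5.48 to 18.3 CPM. In particular, untreated cells held more *IGHM* than any of the other 9 libraries, and DMSO at 12 h was at 0.402-fold (0.367 to 0.439) of the untreated level, so that a change of the size seen with the inhibitors also lay between libraries without them. In order of level, DMSO at 12 h and 24 h were neighbours that did not differ beyond counting error (ratio 0.940, 0.846 to 1.04). Averaged over the time points and inhibitors, the fitted log2 fold change of *IGHM* was near 0, with an SE of 0.31.

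*CD79B* and *CD79A* were below DMSO mainly at 48 h. *CD79B* had 503, 492 and 527 counts with DMSO, 385, 337 and 224 with olaparib, and 545, 457 and 87 with talazoparib. This was 51.2% of DMSO with olaparib and 22.6% with talazoparib at 48 h, whereas the 4 earlier ratios lay between 72.9% and 119%. *CD79A* had 873, 883 and 825 counts with DMSO, 752, 839 and 540 with olaparib, and 995, 784 and 447 with talazoparib. Its ratios were 78.8% and 74.2% at 48 h and 89.9% to 114% before. *JCHAIN*, with 3 to 21 counts after the inhibitors against 9, 10 and 37 with DMSO, had intervals that included 100% in all 6 pairs. *RAG1* had 10, 10 and 9 counts with DMSO and 11 to 19 with an inhibitor, and its 6 intervals likewise included 100%.

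In this experiment, the 6 inhibitor libraries lay below the 3 DMSO libraries for 1 of the 8 genes (*IGLL1*) and above them for 1 (*RAG1*), where 6.5% and 8.17% of the 17218 genes tested did. The mean effect of both inhibitors was called for none of the 6 measurable genes with edgeR's quasi-likelihood test, against 3.16% of all genes called higher and 1.01% lower. The fitted log2 fold change of *IGLL1* was −1.99 (SE 0.48), and the genes were chosen with these contrasts known.

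The other 3 contrasts were not those named in the choice of the genes, but they use the same libraries and are not independent of it. They were tested over all genes in the same fits with Benjamini-Hochberg adjustment. Between the shRNAs, *IGHM* was the only gene of the 6 that passed the test. It was lower with shEVI1-2532 than with shEVI1-2531 on both days, with 24 against 66 counts at day 3 and 25 against 74 at day 6, a log2 fold change of −1.33 (SE 0.36, adjusted p = 0.018 with edgeR's quasi-likelihood test), where 12% of all genes were called lower and 12.2% higher. *MECOM* itself was lower with shEVI1-2532 (log2 fold change −1.70, SE 0.20, adjusted p = 0.000138 in the same test). Without shEVI1-2531 at day 3, the difference in *IGHM* was −0.81 with an adjusted p of 0.122 in edgeR's test, and without shEVI1-2532 at day 6 it was −1.04 with an adjusted p of 0.0550. *JCHAIN* had a log2 difference of 1.87 (SE 0.72) that did not pass the test (adjusted p = 0.0791 with edgeR). Its 95% interval, not adjusted for the number of genes, ran from 0.30 to 3.44 and left out 0. Without shEVI1-2531 at day 6, which leaves its single count at day 3, the value was 4.76 with an adjusted p of 1.53e-06 in edgeR's test, and without shEVI1-2532 at day 6 it was 2.06 with an adjusted p of 0.00842. The latter library also decided *CD79B*, whose difference was 1.03 without it, with an adjusted p of 0.0221 in edgeR's test. For *CD79A*, *CD79B*, *RAG1* and *IGLL1*, the 95% intervals of the log2 difference ran from −0.33 to 0.46, −0.30 to 1.17, −0.30 to 1.40 and −1.51 to 0.42.

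Between day 6 and day 3, only *CD79A* passed the test, and it was higher at day 6 with all 3 constructs. The ratio of day 6 to day 3 was 1.77 (1.65 to 1.90) in NTC, 1.27 (1.16 to 1.38) with shEVI1-2531 and 1.43 (1.31 to 1.56) with shEVI1-2532. The fitted log2 fold change was 0.56 (SE 0.15, adjusted p = 0.0183 with edgeR's quasi-likelihood test), and 11.9% of all genes were called higher and 11.9% lower. Without NTC at day 3 or at day 6, its adjusted p in edgeR's test was 0.107 and 0.108. *IGHM* at day 6 was at 2.10-fold (2.01 to 2.19) of day 3 in NTC, but at 0.827-fold (0.585 to 1.17) and 0.976-fold (0.535 to 1.78) with the shRNAs, and over all 6 libraries its log2 change of 0.45 (SE 0.25) did not pass (adjusted p = 0.230 with edgeR). *JCHAIN* had a log2 change of −1.16 (SE 0.47, adjusted p = 0.0930 with edgeR). Both passed when a library of shEVI1-2531 was left out, with 0.80 and −1.64 without day 3 and 0.83 and −1.61 without day 6, and *CD79B* passed without either NTC library, at −1.02.

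Talazoparib at 1 µM and olaparib at 10 µM, both PARP inhibitors given at different doses, could not be told apart for any of the 6 genes. The log2 difference of *IGLL1* was −0.90 (95% interval −2.33 to 0.53), that of *IGHM* −0.33 (−1.14 to 0.48), and that of *CD79B* 0.10 (−0.81 to 1.02). The intervals were −0.23 to 0.44 for *CD79A*, −0.70 to 1.37 for *JCHAIN* and −0.85 to 0.58 for *RAG1*. No gene passed this test (0% of 17218), where 354 had an unadjusted p under 0.05 with edgeR and DESeq2 called 1. Differences well over 2-fold in either direction are within some of these intervals.

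Genes around *IGHM* were also read. This window was chosen after the values were seen, so its genes are described without a test. Of 56 genes listed within 150 kb of *IGHM*, 16 had at least 10 counts in both NTC libraries, *IGHM* included, and 15 of these were lower in all 4 shEVI1 libraries than in both NTC libraries. A gene entered only through its level in NTC, which favours lower values with the shRNAs, most of all for genes with few counts, so this count is no support beside the 15.4% of all genes given above. *IGHD*, the delta constant region, lies 6027 bases from *IGHM* and had 776 and 1381 counts in NTC, 5 and 11 with shEVI1-2531, and 0 and 0 with shEVI1-2532. Relative to a floor of 3 counts per library, and without counting error, the latter was at least 180-fold lower at day 3 and at least 333-fold lower at day 6. The 9 *IGHJ* entries summed to 192 and 379 counts in NTC, 3 and 9 with shEVI1-2531, and 0 and 0 with shEVI1-2532. Of the J segments printed above, *IGHJ3* alone had 75 and 136 counts in NTC and at most 5 with an shRNA.

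Among the measured neighbours on the D side were 2 long noncoding RNAs of the opposite strand. *FAM30A* (chr14:105917979-105932642, plus strand), 61761 bases from *IGHM*, had the most counts of the 16, with 27915 and 54495 counts in NTC, 2955 and 4791 with shEVI1-2531, and 610 and 904 with shEVI1-2532. It kept 15.0% and 9.44% of the NTC level with shEVI1-2531 and 3.14% and 2.29% with shEVI1-2532. *AC246787.2*, which lies among the D segments, had 1677 and 2175 counts in NTC and 16 to 136 in the shEVI1 libraries. The exception was *AC246787.1*, a processed pseudogene 122302 bases away, with 1381 and 1106 counts in NTC and 1058 to 1470 with the shRNAs. After PARPi, *FAM30A* was at 99.9% and 116% of DMSO with olaparib and talazoparib at 12 h, 92.2% and 82.2% at 24 h, and 48.0% and 32.1% at 48 h. *IGHD* was, as *IGHM*, above DMSO early and below it late, at 130% and 167% of DMSO at 12 h, 186% and 159% at 24 h, and 42.8% and 20.8% at 48 h.

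**Figure D3:**
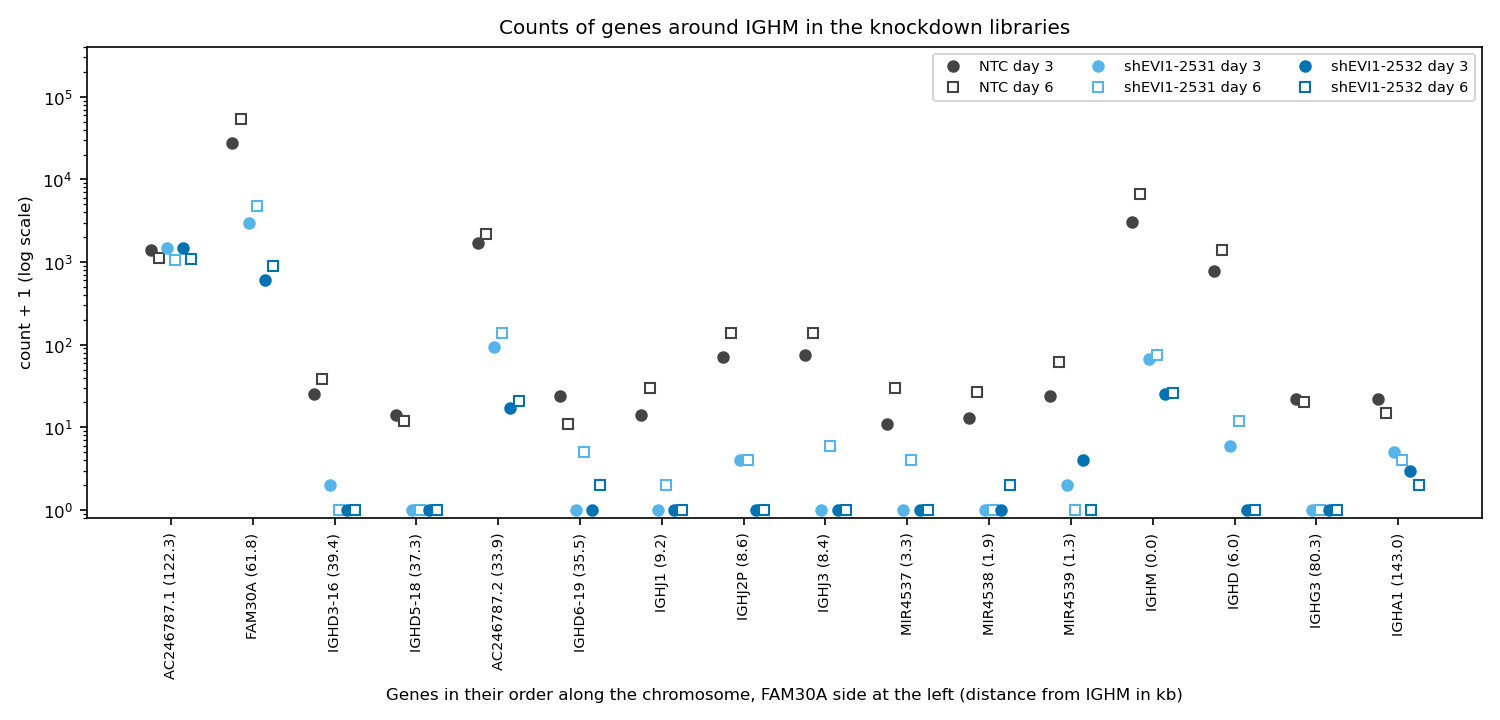
Counts plus 1, on a log axis, of the 16 genes within 150 kb of *IGHM* that had at least 10 counts in both NTC libraries, in their order along the chromosome with the distance from *IGHM* in kb in brackets. Circles are day 3 and open squares day 6, grey for NTC, light blue for shEVI1-2531 and dark blue for shEVI1-2532. All but *AC246787.1* lie lower with the shRNAs.

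Over the 10 ratios of treated to control libraries, *IGHD* had the pattern most like that of *IGHM* among 12028 genes (Pearson's r = 0.993), followed by *ADGRG1* (0.992), *HOMER2* (0.981), *LINC01132* (0.981) and *COL24A1* (0.981). For *IGLL1*, the highest values were those of *C11orf80* (0.908), *TUBB6* (0.908), *SLC25A15* (0.903), *TCAM1P* (0.902) and *KITLG* (0.901). These are descriptions over 10 ratios that share 5 control libraries. For *IGHM* they follow mostly from the distance between the knockdown and the PARPi ratios, and by Spearman's rho *IGHD* was at place 69. By rho, the 5 genes listed for *IGLL1* were at places 109, 1, 34, 17 and 589 in the order given. The *IGLL1* ratio for talazoparib at 48 h rests on a library with 0 counts.

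The promoters could be read for 6 of the 8 genes, with *IGHM* and *CD79B* not matched. The window of *IGLL1* is shown because this gene was lower in both experiments. It comes from RefSeq (GRCh38.p14), covers the 238 bases at chr22:23580303-23580540 and is written 5′ to 3′ on the minus strand. Capitals mark 2 stretches that each hold 2 overlapping matches to CCCNNGGG, the core that EBF factors are known to bind, and 1 match to CAGGTG, an E-box.
IGLL1 promoter: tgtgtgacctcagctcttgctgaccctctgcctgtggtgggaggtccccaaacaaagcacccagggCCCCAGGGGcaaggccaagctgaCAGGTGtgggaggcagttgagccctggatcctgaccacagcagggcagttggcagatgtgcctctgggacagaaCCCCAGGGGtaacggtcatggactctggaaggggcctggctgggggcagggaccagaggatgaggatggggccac
On both strands of 250 bases before the start of 35116 promoters, CCCNNGGG was found in 17.1%, CAGGTG in 17.5%, the octamer ATTTGCAT in 1.63% and GATAAG in 5.65%. The windows of *VPREB1*, *CD79A* and *DNTT* each held 1 CAGGTG and that of *VPREB1* also 1 CCCNNGGG, whereas those of *JCHAIN* and *RAG1* held none of the 4. *EBF1*, the B-lineage factor for the first motif, had at most 1 count in any library.

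Other genes of the B lineage were taken from 4 lists of 57 genes in all, and moved in both directions. After shEVI1-2532, 9 rose and 12 fell of the 34 tested, with a median log2 fold change of 0.12 against 0.00 for all genes, and after shEVI1-2531, 1 rose and 5 fell, with a median of 0.01 for the list and for all genes. These calls come from the same edgeR test, whose shares over all genes are given above. A gene with few counts can enter the test through the group where it is high, which favours a call in that direction. With at least 1 CPM required, 7 rose and 9 fell of 26 tested for shEVI1-2532. Without NTC at day 3 or at day 6, 11 and 12 of them were called for shEVI1-2532. With scaling to the library total only, the split for shEVI1-2532 was 5 higher and 14 lower.

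Among the transcription factors, the ones most specific to B cells were at or near 0. *PAX5*, which commits cells to it, had at most 3 counts, and *POU2AF1* had 0 in all libraries. After shEVI1-2532, 1 of 7 tested factors rose (*FOXO1*) and 4 fell, and after shEVI1-2531 2 fell, with median log2 fold changes of −0.84 and −0.49. *BCL11A*, which early lymphoid progenitors need, fell by 2.95 with shEVI1-2532 (SE 0.21, adjusted p = 9.96e-07 in edgeR's test) and by 1.82 with shEVI1-2531 (SE 0.20, adjusted p = 0.00011). The E proteins *TCF12* and *TCF3*, which bind E-boxes, fell by 1.13 (SE 0.15) and 0.84 (SE 0.14) with shEVI1-2532. The fourth factor called lower with shEVI1-2532 was *SPIB*, with a log2 fold change of −2.80 (SE 0.93). Its level was near the filter on low counts, at a mean log2 CPM of −3.50, so nothing is read from this call. *TCF12* also fell with shEVI1-2531, by 0.49 (SE 0.15). All of these values are on the log2 scale.

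Of 15 tested genes of the B cell surface and of signalling below the receptor, 7 rose and 3 fell after shEVI1-2532, and 1 rose (*FCRLA*) and 1 fell after shEVI1-2531, with medians of 0.29 and 0.08. *FCRLA* was also among the 7 that rose with shEVI1-2532, by a log2 fold change of 5.96 (SE 0.47, adjusted p = 2.2e-06 in edgeR's test). Its level was low, at a mean log2 CPM of −0.24. With the same shRNA, 2 genes of higher level rose as follows. *CD40*, a costimulatory receptor that myeloid cells also carry, rose by a log2 fold change of 1.78 (SE 0.18, adjusted p = 1.22e-05 in edgeR's test), and the adaptor *PIK3AP1* by 1.15 (SE 0.16, adjusted p = 0.000155). *CD72*, a coreceptor, fell by 1.06 (SE 0.27, adjusted p = 0.00761) on the log2 scale. *IL7R*, the receptor of the cytokine that supports early lymphoid cells, fell by 1.35 on the log2 scale with shEVI1-2531 (SE 0.20, adjusted p = 0.000818 with edgeR). With shEVI1-2532 its log2 fold change was −0.62 (SE 0.20, adjusted p = 0.0247 with edgeR). *MS4A1* and *BLK* had 0 counts throughout.

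Of 9 tested genes of V(D)J recombination, most of which serve DNA end joining in all cells, 1 rose and 2 fell after shEVI1-2532 and none was called after shEVI1-2531, with medians of 0.14 and 0.16. *POLM*, a polymerase that fills ends at the joints, fell by 1.24 (SE 0.17), *DCLRE1C* (Artemis, the nuclease that opens hairpin ends) fell by 0.67 (SE 0.22), and *POLL* rose by 0.51 (SE 0.16), on the log2 scale. Of 14 other immunoglobulin genes, 9 were under 10 counts in all libraries and 3 could be tested. These were *IGHD*, *IGHG3* and *IGHA1*, all within 150 kb of *IGHM*. All 3 were called lower with shEVI1-2532, and *IGHD* and *IGHG3* also with shEVI1-2531. None would have passed the filter on low counts without the NTC libraries, which favours lower values with the shRNAs. Nothing is therefore read from these calls, which are also part of the genes of the 4 lists that fell. *IGHG3* had 21 and 19 counts in NTC and 0 in the 4 shEVI1 libraries. After PARPi, 1 of 30 tested genes of the 4 lists rose and none fell, with a median log2 fold change of 0.09 against −0.01 for all genes. It was *FCRLA*, named here after its values were seen, with a log2 fold change of 1.91 (SE 0.42, adjusted p = 0.0480 with edgeR) at 4 to 31 counts in the time course. This call was lost with scaling to the library total, with at least 1 CPM required, without the hour as block, and without any one of 7 of the 9 libraries, whereas DESeq2 called 10 of the 30 genes.

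**Figure D4:**
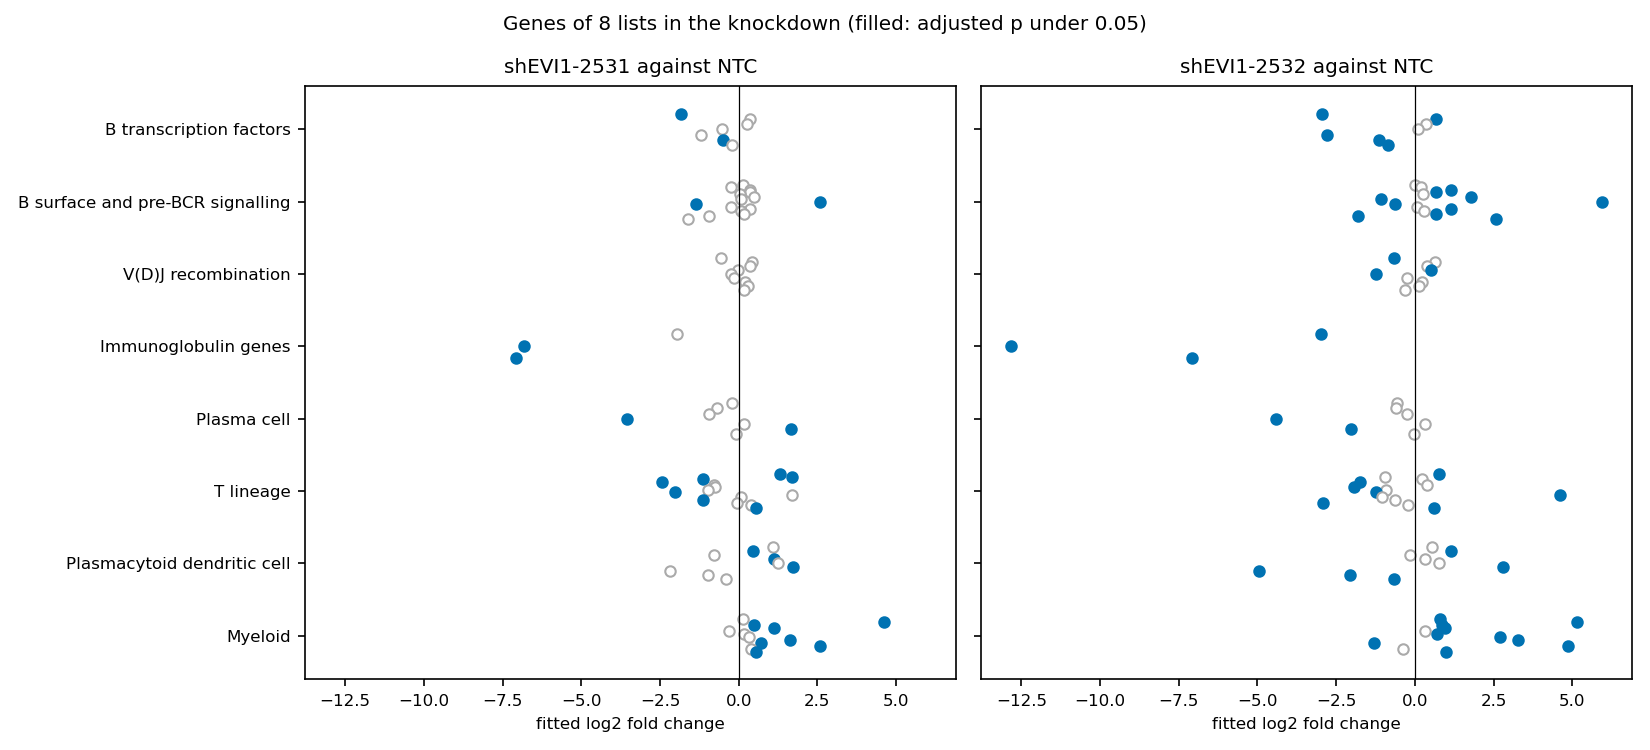
Fitted log2 fold change of each tested gene of 8 lists, 4 of the B lineage and 4 of other cell types, for each shRNA against NTC. Filled points passed an adjusted p under 0.05. The point farthest to the left is *IGHD*, which had no count with shEVI1-2532, so its fitted value is no measure of size.

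Most myeloid markers were higher with the knockdown. For this and the next 3 lists, the shares of all genes called stand above, at 21.2% higher and 19.9% lower for shEVI1-2532 and 9.49% and 7.9% for shEVI1-2531. Of 12 myeloid genes, 9 rose and 1 fell after shEVI1-2532, and 7 rose and none fell after shEVI1-2531, with medians of 0.92 and 0.52. The gene that fell was *KIT*, with a log2 fold change of −1.30 (SE 0.21), whereas it rose by 0.71 (SE 0.20) with shEVI1-2531. *MPO* was called with neither shRNA (−0.37 with shEVI1-2532 and 0.40 with shEVI1-2531). The summed level of the 12 genes was 4864 to 5281 CPM in NTC, 5587 to 8162 CPM with shEVI1-2531 and 7616 to 10712 CPM with shEVI1-2532. None of the 12 was under 10 counts in all libraries. A sum follows the genes with the most counts, and with shEVI1-2532 much of its rise was that of *LYZ*. *LYZ*, the lysozyme of monocytes and granulocytes, had 24899 and 19994 counts in NTC, 101689 and 117510 with shEVI1-2531 and 392475 and 526143 with shEVI1-2532. *CD14*, the monocyte coreceptor for lipopolysaccharide, rose by log2 fold changes of 4.60 (SE 0.25) and 5.14 (SE 0.25), and the integrin *ITGAM* by 1.62 (SE 0.13) and 3.27 (SE 0.14), with shEVI1-2531 and shEVI1-2532. Their part in the lower levels of *IGHM*, *IGLL1*, *JCHAIN* and *CD79B* was not tested. In the PARPi libraries, the myeloid sum was 3499 to 5190 CPM without inhibitor and 3686 to 6417 CPM with it, and the mean effect of both inhibitors was called for no myeloid gene. Talazoparib alone against DMSO called 1, *ITGAM*, higher (log2 fold change 1.80, adjusted p = 0.0497 with edgeR).

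Plasma cell genes, fixed as a list since *JCHAIN* belongs to that programme, were mixed. Of 7 tested, 2 fell after shEVI1-2532 (*MZB1* and *SDC1*, median −0.56), and 1 rose (*SDC1*) and 1 fell (*MZB1*) after shEVI1-2531 (median −0.23). *TNFRSF17* (BCMA) had 0 counts in all libraries, and the summed level of the 9 genes was 367 to 370 CPM in NTC, 302 to 312 CPM with shEVI1-2531 and 255 to 331 CPM with shEVI1-2532. *MZB1*, a chaperone of mu chain assembly, had 338 and 458 counts in NTC, 22 and 34 with shEVI1-2531 and 16 and 10 with shEVI1-2532, with log2 fold changes of −3.54 (SE 0.34) and −4.41 (SE 0.37). After PARPi, 2 of 7 rose, against 3.16% of all genes called higher and 1.01% lower. *SDC1* (CD138) rose by a log2 fold change of 2.61 (SE 0.32, adjusted p = 0.0131 with edgeR). *PRDM1*, the regulator of plasma cell fate, rose by 0.75 (SE 0.12, adjusted p = 0.0285 with edgeR). Calls in this contrast were unstable, as no gene at all passed with the 24 h libraries left out.

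Of 14 tested T lineage genes, 3 rose and 4 fell with either shRNA, with medians of −0.76 (shEVI1-2532) and −0.40 (shEVI1-2531). *CD3E*, a chain of the T cell receptor complex, fell with both, with log2 fold changes of −1.74 (SE 0.24) and −2.43 (SE 0.25) in this order, as did the kinase *LCK*, with −1.24 (SE 0.39) and −2.03 (SE 0.39). *TRDC* fell with shEVI1-2532, with −2.91 (SE 0.24), and *CD2* rose with shEVI1-2531, with 1.68 (SE 0.35). Of the 20 genes, 6 were under 10 counts in all libraries, among them *CD247*, *ZAP70* and *BCL11B*, and the summed level was 128 to 178 CPM in NTC, 150 to 184 CPM with shEVI1-2531 and 96.4 to 116 CPM with shEVI1-2532. Of 9 tested genes of plasmacytoid dendritic cells, 2 rose and 3 fell with shEVI1-2532 and 3 rose with shEVI1-2531, with medians of 0.32 and 0.45. *NRP1* and *IL3RA* rose with both (log2 fold changes of 2.80 and 1.16 with shEVI1-2532, and 1.72 and 0.45 with shEVI1-2531). *IRF8* rose with shEVI1-2531 (1.13), and *PTPRS* fell with shEVI1-2532 (−2.06). After PARPi, 1 of 8 tested rose, *IRF7*, by 0.69 (adjusted p = 0.0397 with edgeR), with the same limit as the plasma cell calls. *TCL1A* and *LAMP5* were at 0 in all libraries, and the summed level of the 12 genes was 94.3 to 131 CPM in NTC, 123 to 153 CPM with shEVI1-2531 and 193 to 207 CPM with shEVI1-2532.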

How the data were processed

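RNA (Qiagen RNeasy Plus kit) was made into TruSeq Stranded mRNA libraries and sequenced as 100 bp paired ends. The authors deposited raw counts per gene (featureCounts) and TPM, and the submitters' processing notes also name STAR, Picard and hg38, without versions. The deposited TPM equal counts scaled over the whole gene span, as checked on the values, and were not used. CPM were taken from counts.

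Genes reaching 10 counts in 2 or more of 6 knockdown or 3 or more of 9 time course libraries were fitted with edgeR 4.0.16 (R 4.3.3, TMM, quasi-likelihood), with shRNA and day or inhibitor and hour as factors. The untreated library entered no test. With 1 library per condition, the error is how far effects depart from one another between days or hours (2 and 4 residual degrees of freedom), and whether libraries came from separate cultures is not given in the sources used here. Benjamini-Hochberg adjustment ran over all genes with a threshold of 0.05. DESeq2 1.42.0, other scalings, filters and designs and each library left out were alternatives. Ratios for likeness had a prior count of 2.

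The members and lists were chosen with earlier results of these data known. Of each list, the genes named are the up to 3 called with the largest change at a mean of at least 1 CPM, with *PAX5*, *EBF1*, *RAG2* and *IGHD* whatever their values (1 further gene of this rule is not reported here), and for likeness the first 5. *POU2AF1*, *MS4A1*, *BLK*, *TNFRSF17*, *IGHG3*, *IGHA1*, *FOXO1*, *SPIB*, *FCRLA*, *KIT*, *MPO*, the *IGHM* neighbours and other genes at 0 or under 10 counts were named after their values were seen. Steps were tested on simulated data.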

Additional observations from a re-analysis of the deposited data

Results flagged for a closer look

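*IGHM* differed between the shRNAs, with a log2 fold change of −1.33 for shEVI1-2532 against shEVI1-2531 (adjusted p = 0.018 with edgeR's quasi-likelihood test). It was lower with shEVI1-2532 on both days. It drew attention because the same contrast, *EVI1* knockdown against NTC, gave effects of different size with 2 shRNAs, by a test of the difference itself. Of all genes, 12% were called lower and 12.2% higher in this test, so the call does not set *IGHM* apart. Without the day as block, its adjusted p was 0.103 in edgeR's test. The log2 difference was −0.81 without shEVI1-2531 at day 3 and −1.04 without shEVI1-2532 at day 6. Groups of 1 library per condition were too small to look for single samples that stand apart.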

How the results depend on the processing

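No called difference of the 8 genes between the shRNAs or the days reversed its direction under the alternatives run. Named genes of the lists and the fitted changes against NTC or DMSO were not recomputed one by one. The 1 gene of the 8 called between the shRNAs became 2 without a filter on low counts and 0 without the day as block, and ranged from 0 to 2 with a library left out (0 without shEVI1-2531 at day 3, 2 without either shRNA at day 6). The 1 gene called between the days became 0 with a log2 fold change beyond 1 required, 2 without a filter and 0 without the shRNA as a factor, and ranged from 1 to 3 with a library left out (3 without either library of shEVI1-2531). Without either NTC library the gene called was *CD79B*, not *CD79A*. Of the other B-lineage genes, 21 were called for shEVI1-2532 against NTC, 12 without the block, and 11 to 22 with a library left out. For shEVI1-2531, 6 were called, with 4 to 9 when a library was left out. After PARPi, the 1 called became 10 with DESeq2, 3 with upper quartile normalization, 0 with the library total only, 10 without a filter, 0 with at least 1 CPM and 0 without the block, and ranged from 0 to 13 with a library or time point left out (13 without DMSO at 12 h or all of 12 h, 9 without talazoparib at 12 h). No member was called between talazoparib and olaparib under any of these alternatives. The causes were not tested, except that fewer libraries or genes enter some of them.

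Over all genes, the calls ranged over 3536 to 8482 for shEVI1-2532 against NTC (7648 as reported) and from 0 to 4720 after PARPi (718). Scaling to the library total moved the median log2 fold change of all genes to −0.30 for shEVI1-2532 and −0.16 for shEVI1-2531 against NTC, −0.11 between the shRNAs and 0.18 between the days. The share of calls that were higher then went from 51.5% to 28.4%, from 54.6% to 31.6%, from 50.4% to 33.7% and from 50.2% to 73.9%. The *IGHM*, *IGLL1*, *JCHAIN*, *CD79B* and *RAG1* ratios to NTC kept their direction, and those of *CD79A* at day 3 did not stay above NTC. Of the values of single-library ratios under other settings, 230 moved by less than the counting interval and 10 by more. No paired analysis was possible because no group has a second replicate, and hour and day already entered as blocks. One library per condition limits what can be tested, and low counts (9 to 19 for *RAG1* and 3 to 37 for *JCHAIN*) limit both genes in the PARPi libraries.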
